A study of Drosophila melanogaster with 2 samples.

Results

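The apical-basal polarity genes crb, sdt, Patj, baz, par-6, aPKC, l(2)gl, dlg1, scrib and shg were followed through the binding regions of Gcm2 in whole Drosophila melanogaster embryos. They were chosen by name, and are 10 of the 13945 protein-coding genes annotated on the 6 chromosome arms. Each gene was given the regions whose summit, the strongest point of a region, fell in its gene body or within 5 kb of either end. In the chromatin immunoprecipitation sequencing (ChIP-seq) experiment, an antibody against GFP pulled down chromatin from embryos of both sexes, collected from 0 to 24 h and all of the transgenic strain gcm2-GFP, in which Gcm2 (glial cells missing 2, a transcription factor) carries GFP at its C terminus. The antibody field of the labels itself names gcm2. There is 1 group of 2 libraries, labelled biological replicates 2 and 3. Both come from 1 transgenic line, and whether it keeps an untagged gcm2 gene is not given in the sources used here. A library from untagged embryos is not analysed here, and with 1 group there is no contrast between conditions.

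Epithelial cells keep an apical and a basolateral side apart through groups of proteins that exclude each other from their own part of the membrane. The Crumbs group (Crb, Sdt and Patj) marks the apical side, the Par group (Baz, Par-6 and aPKC) sets the border where adherens junctions form, and the Scribble group (l(2)gl, dlg1 and scrib products) holds the basolateral side. The E-cadherin Shg joins neighbouring cells at the adherens junction. Proteins of the Par and Scribble groups also act in dividing neuroblasts, the stem cells of the embryonic nervous system. Gcm proteins are known for driving the glial fate and for their part in blood cells.

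The authors deposited a pooled list of 30000 candidate regions, a list of 30000 for each replicate, and a final list of 2177 regions that passed the irreproducible discovery rate (IDR), here called IDR peaks. These are the 2177 strongest pooled candidates by signal, the authors' enrichment value for a region against a control. Ranks are by that signal, with 1 the strongest. Many candidates are weak by construction, since only 22.7% of the pooled list has a q-value at or below 0.05. Signal is not on a common scale between lists, so replicates are set beside each other by rank.

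The sequences below lie under all 3 IDR peaks of crb, both of scrib and the strongest of the 3 of dlg1 (the other dlg1 peaks are not printed), and they are shown because they let the promoter, intronic and exonic peaks be read against each other. They are the plus strand of the Release 6 reference (RefSeq), read at dm6 coordinates, and capitals mark the 21 bases centred on the summit. In the crb promoter the capitals also take in an M1BP site, GGTCACACT, and in the upstream crb peak a second run of capitals marks the DNA replication-related element TATCGATA. The crb promoter and upstream sequences stop short of transcribed leader sequence. The dlg1 sequence is named for the intron that holds it. Its summit is 499 bp from the start of transcript dlg1-RP, so it is counted below as a promoter peak.
crb promoter, chr3R:24294923-24295077: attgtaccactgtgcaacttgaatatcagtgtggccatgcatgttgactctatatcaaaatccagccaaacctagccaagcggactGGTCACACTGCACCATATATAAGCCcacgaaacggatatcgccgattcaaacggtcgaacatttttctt
crb upstream, chr3R:24290011-24290171: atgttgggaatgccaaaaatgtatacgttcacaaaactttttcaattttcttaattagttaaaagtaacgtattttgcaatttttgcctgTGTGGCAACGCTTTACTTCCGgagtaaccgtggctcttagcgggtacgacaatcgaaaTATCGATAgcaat
crb intron, chr3R:24298545-24298745: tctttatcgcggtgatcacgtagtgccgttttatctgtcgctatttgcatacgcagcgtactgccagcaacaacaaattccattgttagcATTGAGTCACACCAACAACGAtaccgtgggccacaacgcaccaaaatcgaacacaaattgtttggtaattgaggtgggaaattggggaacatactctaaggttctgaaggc
dlg1 intron, chrX:11390771-11390971: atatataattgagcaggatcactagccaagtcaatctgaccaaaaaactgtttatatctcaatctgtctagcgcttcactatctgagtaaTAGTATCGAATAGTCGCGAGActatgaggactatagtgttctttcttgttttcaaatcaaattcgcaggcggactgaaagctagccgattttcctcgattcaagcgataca
scrib intron, chr3R:26557583-26557783: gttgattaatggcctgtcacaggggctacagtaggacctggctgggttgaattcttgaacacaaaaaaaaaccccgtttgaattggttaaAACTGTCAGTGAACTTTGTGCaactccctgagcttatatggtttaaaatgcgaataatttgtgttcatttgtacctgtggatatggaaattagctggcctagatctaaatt
scrib coding exon, chr3R:26567010-26567210: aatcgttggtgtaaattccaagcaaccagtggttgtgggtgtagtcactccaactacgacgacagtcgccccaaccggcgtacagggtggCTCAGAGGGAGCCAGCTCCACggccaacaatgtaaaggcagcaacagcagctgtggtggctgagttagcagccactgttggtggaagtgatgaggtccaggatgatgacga

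An IDR summit lay in the body or within 5 kb of 6 of the 10 genes: crb, baz, par-6, aPKC, dlg1 and scrib. That is 60.0% (95% Wilson interval 31.3 to 83.2, counting error only), where 30.4% of all protein-coding genes have such a summit. Long genes gather more summits, and the polarity genes are long, with a median span of 19.0 kb against 2.17 kb for all protein-coding genes. Of the 7 polarity genes that span at least 10 kb, 5 had an IDR summit (71.4%), beside 44.9% of all genes that long. Inside the gene body itself an IDR summit was found in 4 of the 10, crb, baz, dlg1 and scrib, against 7.08% of all genes and 26.4% of those spanning at least 10 kb. Within 1 kb of an annotated transcription start site (TSS) of the gene, there was one for crb, par-6, aPKC and dlg1, 4 of 10, against 12.7% of all genes. At par-6 and aPKC that summit was nearer the TSS of a neighbour. Genes with several TSSs offer more such windows: dlg1 and sdt had 7 each and aPKC had 4. The share was not taken over genes with as many TSSs. No test was made of these shares, because the genes and the windows were chosen with results of these data known. sdt, Patj, l(2)gl and shg had no IDR summit in the window.

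**Figure D1:**
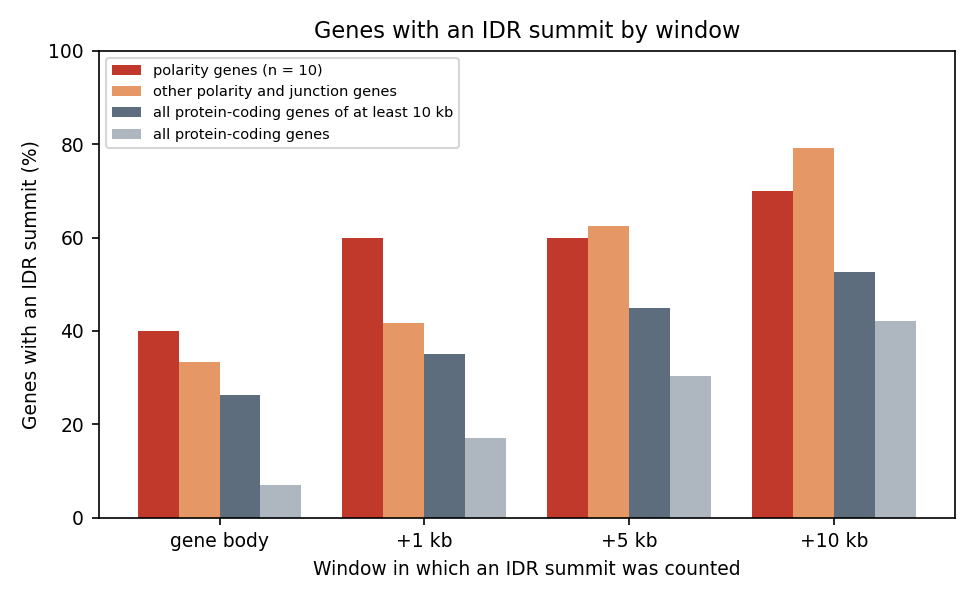
Share of genes with an IDR summit (percent, vertical axis) as the window around the gene widens (horizontal axis), for the 10 polarity genes, 24 other polarity and junction genes, all protein-coding genes spanning at least 10 kb and all protein-coding genes. The polarity genes go from 40.0% in the gene body to 60.0% with 5 kb and 70.0% with 10 kb added, and all protein-coding genes from 7.08% to 30.4% and 42.2%.

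The 6 genes held 12 IDR peaks, 3 at crb, 3 at dlg1, 2 at par-6, 2 at scrib, 1 at baz and 1 at aPKC. A pair at dlg1 overlaps, which leaves 11 separate places. Their signals ran from 60.3 to 123, with a median of 73.2, and the median of all IDR peaks was 82.4. Only 2 of the 12, the strongest of dlg1 and of par-6, were above that median. The nearest protein-coding TSS belonged to the polarity gene itself at 8 of the 12 peaks; at the others, 2 at par-6, 1 at aPKC and 1 at crb, it belonged to a neighbour, so these peaks cannot be assigned to the polarity gene by position.

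**Figure D2:**
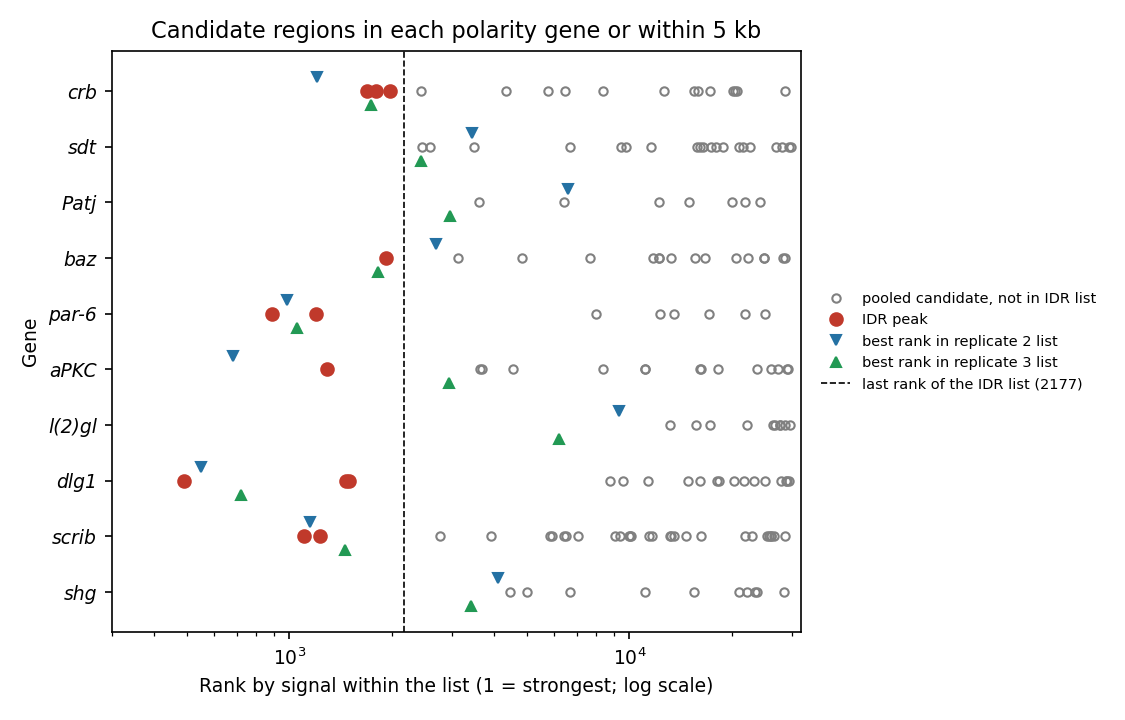
Rank by signal (1 is the strongest; log axis) of the pooled candidates at each polarity gene, with IDR peaks as filled red circles, other candidates as open circles, the best rank in each replicate list as triangles and the last rank of the IDR list, 2177, as a dashed line. dlg1 holds the best pooled rank, 490, and the best rank of l(2)gl, 13126, is the poorest of the 10 genes.

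crb, which encodes the transmembrane apical determinant Crumbs, lies at chr3R:24295078-24314541 on the plus strand. It had 16 pooled candidates, 7 of them with a q-value at or below 0.05, and its 3 IDR peaks stood near each other in rank. The first, chr3R:24298413-24298876, was in an intron 3567 bp downstream of the TSS, with a signal of 65.3 and rank 1697. It ranked 1209 in replicate 2 and 3375 in replicate 3, so it was the stronger in replicate 2. The second, chr3R:24294791-24295254, was at the promoter, with its summit 55 bp upstream of the TSS that all 4 annotated crb transcripts share. Its signal was 63.6 at rank 1796, with ranks of 2107 and 1891 in replicates 2 and 3. The crb promoter peak thus had near equal ranks in both libraries. The last, chr3R:24289879-24290342, had a signal of 60.3 at rank 1982 and ranks of 3126 and 1742 in replicates 2 and 3. It lay 4967 bp upstream of crb, just inside the 5 kb limit, and 61 bp from the TSS of Uck, which encodes a uridine-cytidine kinase. A candidate in the crb intron, 980 bp downstream of the TSS, fell just outside the IDR list at rank 2433, with ranks of 2705 and 2121.

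sdt encodes Stardust, the membrane-associated guanylate kinase (MAGUK) scaffold that binds the tail of Crb, and lies at chrX:8178549-8240474. Over its 61.9 kb it had 20 pooled candidates and no IDR peak. Its best candidate, chrX:8233193-8233656, was in an intron 54.9 kb from the 5' end. That region had a signal of 54.1 at rank 2455, with ranks of 3557 and 3697 in replicates 2 and 3, where the weakest IDR peak had a signal of 57.8. Its next, at rank 2592, lay 467 bp upstream of the shared TSS of transcripts sdt-RD and sdt-RK, with ranks of 3439 and 2435. Both sdt regions were therefore found in both libraries, just below the authors' threshold. Patj encodes a scaffold with many PDZ domains that binds Sdt, and lies at chr3L:1798803-1802184. The best of its 7 candidates ranked 3610, but its summit was 4263 bp upstream and nearest the TSS of alpha-Spec, the gene for alpha-spectrin, 788 bp away. Inside the Patj body the best rank was 20105. An IDR peak ranked 342 lay between 5 and 10 kb from Patj.

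baz encodes Bazooka, the fly Par-3 scaffold, and lies at chrX:17160006-17200728. Its IDR peak, chrX:17176526-17176989, had a signal of 61.1 at rank 1920, with ranks of 2708 and 1824 in replicates 2 and 3. The summit was in an exon of the 5' untranslated region (UTR) 16.8 kb downstream of the TSS. Not counting summits within 500 bp of a TSS, 10 of the 2177 IDR peaks were in 5' UTR exons, and 0.87% of all pooled candidates. The baz promoter held a candidate below the IDR list, with its summit 35 bp upstream of the TSS, at rank 3139. There the replicates were further apart, with ranks of 9343 and 2367.

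par-6 encodes the adaptor that ties aPKC to its partners, and lies at chrX:17703352-17707096. It had the strongest signals of the Par group, but both of its IDR peaks stood before the gene. One, chrX:17698911-17699374, had a signal of 90.7 at rank 888 and ranks of 984 and 1050 in replicates 2 and 3. It lay 4209 bp upstream of par-6 and 413 bp from the TSS of chas. The other, chrX:17702678-17703141, had a signal of 78.6 at rank 1201 and ranks of 1230 and 1206. Its summit was 442 bp upstream of the par-6 TSS and 114 bp from that of CG8188, so it can be placed at either promoter. Both regions had near equal ranks in both libraries. Inside the 3.74 kb of par-6 the best rank was 21821.

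aPKC encodes the atypical protein kinase C that phosphorylates polarity proteins at the apical membrane. Its IDR peak had a signal of 75.6 at rank 1288. The summit lay 172 bp upstream of the TSS of transcripts aPKC-RA, aPKC-RC and aPKC-RD, and 151 bp from the TSS of ckn. In replicate 2 it ranked 682, the best of any polarity gene region there but 1, at dlg1. In replicate 3 no candidate summit came within 100 bp. The nearest was 143 bp away, at rank 2940, outside the 2177 strongest of that library. It was the only IDR peak of the polarity genes without a candidate in both libraries within that distance. Inside the aPKC body the best candidate was in an intron at rank 3628, with ranks of 3116 and 9545.

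l(2)gl, which encodes the cytoskeletal protein Lgl that aPKC phosphorylates, lies at chr2L:9839-21376 and had the weakest regions of the 10 genes. It had 10 pooled candidates, none with a q-value at or below 0.05. The best, chr2L:23872-24335, had a signal of 22.0 at rank 13126 and a q-value of 0.279, and was nearest the TSS of Ir21a. Only 1 of its 10 candidates had a candidate in both replicates. Its best ranks in the replicates were 9341 and 6216, in regions other than the best pooled one.

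dlg1, the gene of the MAGUK scaffold Discs large, lies at chrX:11369665-11409776 and had the strongest region of the 10 genes. That peak, chrX:11390639-11391102, had a signal of 123 at rank 490, with ranks of 549 and 719 in replicates 2 and 3. Its summit was in an intron, 21.2 kb from the 5' end of the gene and 499 bp downstream of the TSS of transcript dlg1-RP. An overlapping IDR peak had its summit 204 bp further on, with a signal of 70.7 at rank 1470. It ranked 2467 in replicate 2 and only 8963 in replicate 3. Within 100 bp, the first summit is thus the one with a strong region in both libraries. The replicate 3 summits were near that limit, 91 bp from the first peak and 98 bp from the overlapping one. Within 50 bp neither peak has a match in replicate 3, so its part in this comparison depends on the distance allowed. The remaining dlg1 peak, chrX:11384076-11384539, had a signal of 69.99 at rank 1502 and ranks of 1186 and 2703. It lay 572 bp upstream of the TSS of transcript dlg1-RK. All 3 dlg1 peaks were thus inside the gene and near starts of internal transcripts. None was at the 5' end of the gene.

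scrib, the gene of the leucine-rich repeat and PDZ scaffold Scribble, lies at chr3R:26536350-26604051. As the longest of the genes, at 67.7 kb, it also had the most pooled candidates, 29, of which 8 had a q-value at or below 0.05. The stronger IDR peak, chr3R:26557451-26557914, had a signal of 81.8 at rank 1105 and ranks of 1192 and 1462 in replicates 2 and 3. It was in an intron 21.3 kb from the 5' end. The other, chr3R:26566878-26567341, had a signal of 77.5 at rank 1230 and ranks of 1153 and 1477. Its summit was in a coding exon, 1503 bp upstream of the TSS of transcript scrib-RS. Not counting summits within 500 bp of a TSS, 5 of the 2177 IDR peaks were in coding exons, and 16.4% of all pooled candidates. The sequence under this exonic scrib peak was 55.2% G and C, the highest of the 12 peaks, and 39.3% under the intronic scrib peak. At the 5' end of scrib, 46 bp downstream of the TSS, the candidate ranked 5909, with ranks of 4652 and 11451. Both scrib peaks were inside the gene and had close ranks in both libraries.

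shg encodes E-cadherin, the adhesion receptor of adherens junctions. It had 10 pooled candidates and no IDR peak. The best, 7844 bp downstream of the TSS and so beyond the 3' end of the gene, had a signal of 39.1 at rank 4457, with ranks of 4119 and 27106 in replicates 2 and 3. The next ranked 4990 and lay 56 bp from the TSS of the neighbour CG15653. Inside the shg body the best rank was 11114. For shg the libraries did not share their strongest regions: the best of replicate 3, ranked 3430 there, ranked 25898 in replicate 2.

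**Figure D3:**
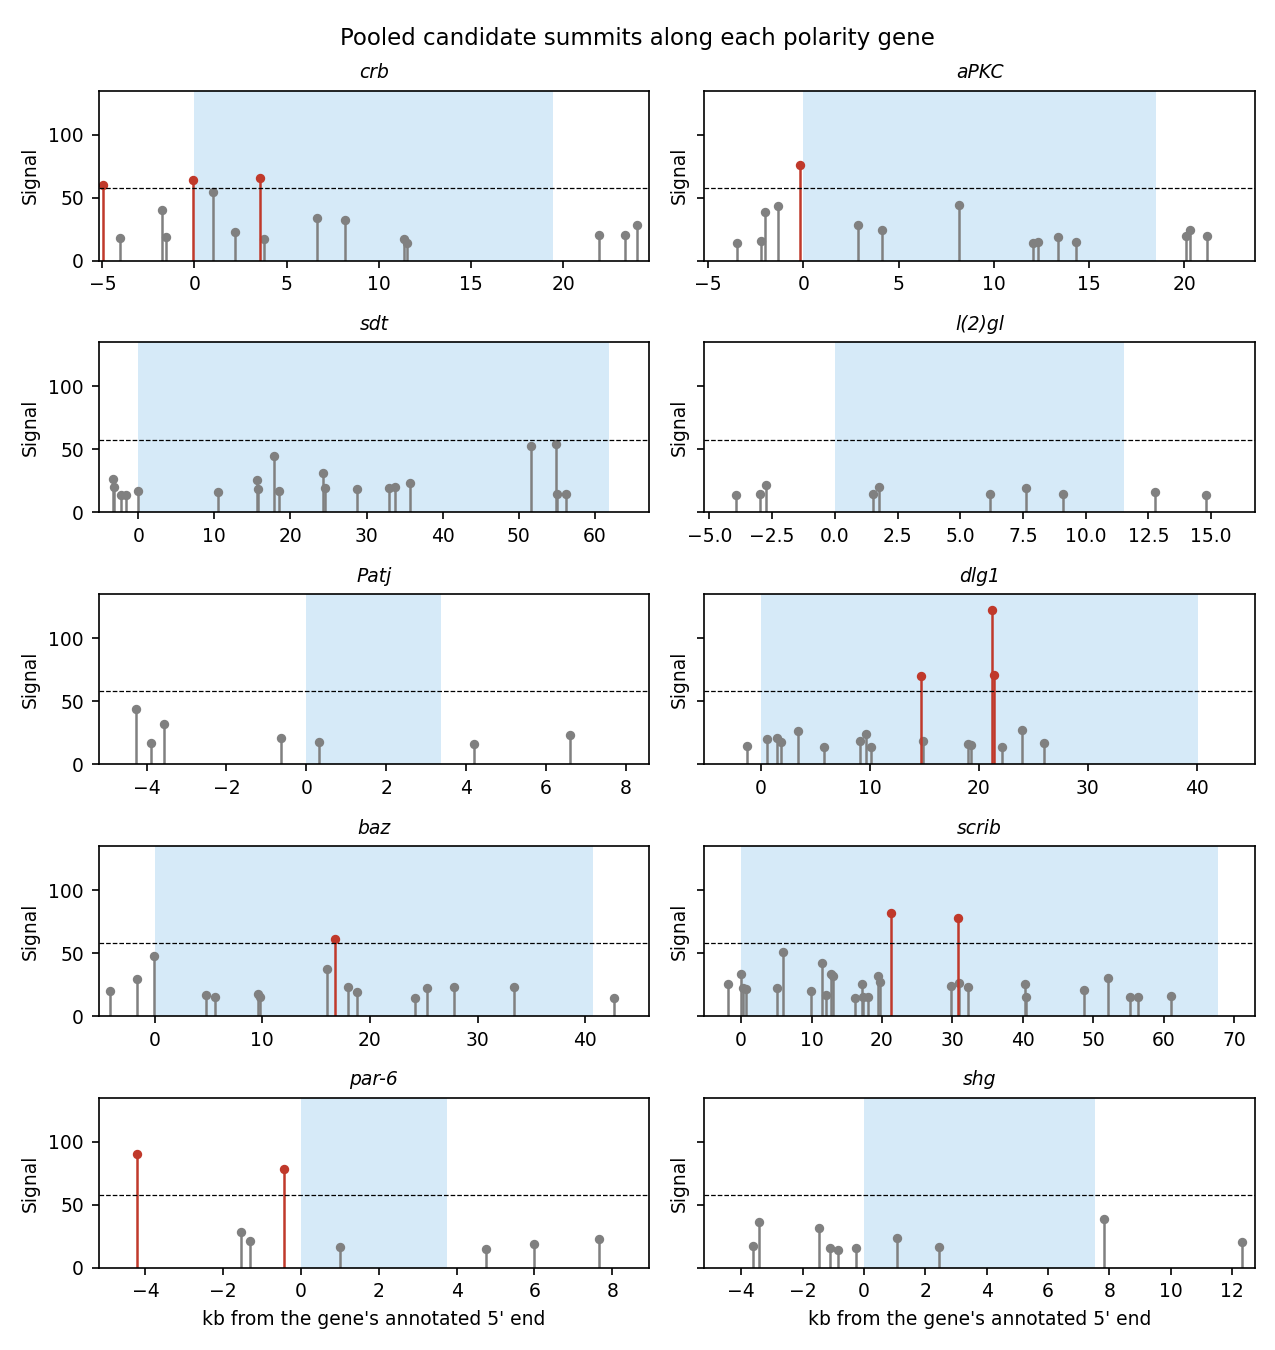
Signal of the pooled candidates (vertical axis) at each of the 10 polarity genes by distance of the summit from the annotated 5' end in the direction of transcription (kb, horizontal axis), with IDR peaks in red and other candidates in grey. Shading marks the gene body and the dashed line the weakest IDR signal, 57.8; the IDR peaks of dlg1, scrib and baz are inside the gene and those of par-6 and aPKC before it.

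In all, the 10 genes had 149 pooled candidates, 3.98 per 10 kb of gene and flank, against 2.24 per 10 kb over the chromosome arms. The arms include sequence far from any gene, so these densities are not like for like. In the same window the median was 15.5 candidates per polarity gene, at a median span of 19.0 kb. For all protein-coding genes it was 5.0, at a median span of 2.17 kb, and for those spanning at least 10 kb it was 9.0. The median rank of the 149 was 15608, near the middle of the list of 30000. IDR peaks were 12 of these 149, or 8.05% (Wilson interval 4.67 to 13.5), and 7.26% of the whole list. A q-value at or below 0.05 was given to 36, or 24.2% (18.0 to 31.6), close to the 22.7% of the list. Both shares were near those of the whole list. The intervals take the 149 regions as independent, though they cluster in 10 genes and some overlap, so they serve as no test.

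A candidate summit within 100 bp was found in both replicates for 61 of the 149 (40.9%, Wilson interval 33.4 to 49.0), and for 33.9% of the whole list. In replicate 2 alone there were 33, in replicate 3 alone 35, and in neither 20. Among the 36 with a q-value at or below 0.05 it was 31 (86.1%), and 80.8% of all such candidates. Of the 12 IDR peaks, 11 were in both, and 93.9% of the IDR peaks of the series. By the stricter measure, with both replicates among their own 2177 strongest, it was 6 of 12, beside 63.8% of the series. These 6 were the strongest dlg1 peak, both par-6 peaks, both scrib peaks and the crb promoter. Over the 61 shared candidates the replicate ranks had a Spearman rho of 0.54, and over the 10163 shared candidates of the series 0.63; regions are not independent replicates, and both lists were made against the same control. There were 148 candidates at these genes in replicate 2 and 146 in replicate 3. Each list holds 30000 regions, so similar counts do not measure agreement between the libraries. If the 2177 strongest regions of 1 replicate stood in for the IDR list, replicate 2 gave crb, par-6, aPKC, dlg1 and scrib, and replicate 3 gave crb, baz, par-6, dlg1 and scrib. Thus crb, par-6, dlg1 and scrib were in both sets, aPKC came in from replicate 2 and baz from replicate 3.

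**Figure D4:**
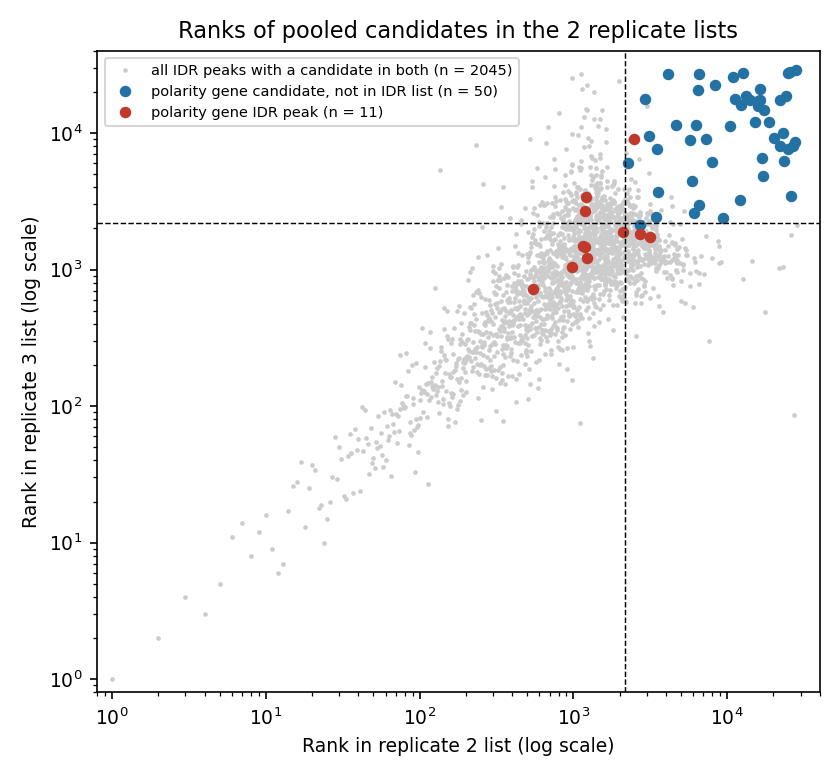
Rank in replicate 2 (horizontal axis) and in replicate 3 (vertical axis), both on log axes, of the candidates found in both: 11 IDR peaks of the polarity genes in red, their 50 other candidates in blue and the 2045 such IDR peaks of the series in grey. Dashed lines mark rank 2177, and 6 of the red points lie within it in both replicates.

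By position, 70 of the 149 candidates were in introns (47.0%), against 33.6% of all candidates, and 37 were within 500 bp of a TSS of any gene (24.8%, against 32.9%). Of the 12 IDR peaks, 6 were at such a promoter, and 57.7% of the IDR peaks of the series. The strongest dlg1 peak, in an intron 499 bp from the TSS of dlg1-RP, is counted with these promoter peaks. Of the rest, 4 were intronic, 1 was in a 5' UTR exon and 1 in a coding exon. The median G and C content over 201 bp was 38.8% for the 12 peaks, with a range of 31.3% to 55.2%, and 37.3% for all IDR peaks.

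Motifs were searched on both strands within 100 bp of each summit. The Gcm octamer was searched as ATACGGGC, ATACGGGT, ATGCGGGC and ATGCGGGT, and none of the 12 IDR peaks held it, a count of 0 that allows a share of up to 25.0%, while 0.781% of all IDR peaks did. It was present at 2 of the 149 candidates (1.34%), and at 1.54% of the whole list. These were a baz candidate ranked 12259 and a par-6 candidate ranked 21821, both weak. The DRE octamer TATCGATA occurred at 1 of the 149 candidates (0.671%, against 1.67% of the whole list). That candidate is the IDR peak at Uck upstream of crb, printed above, where it lies 48 bp from the summit, so it was at 1 of the 12 IDR peaks and at 4.04% of all IDR peaks. GAGAGAG, the GAGA factor element, was within reach of 7 of the 149 summits (4.70%, against 4.12%) and of none of the 12 IDR peaks (5.51% of all IDR peaks). The site of Grainyhead, a regulator of epithelial genes, was searched as AACCGGTT after the data were seen. It occurred at 1 candidate, in scrib at rank 13197, and at 0.307% of the whole list. None of the 12 IDR peaks held it, and 0.23% of all IDR peaks did. The M1BP core promoter site GGTCACACT, also added later, was at the crb promoter peak and at the baz promoter candidate, 2 of 149 (1.34%, against 1.09%). It was thus at 1 of the 12 IDR peaks, and at 1.93% of all IDR peaks. A match describes letters near a summit and no more.

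A further 24 genes of polarity and junctions were looked at in the same way. An IDR summit in the body or within 5 kb was found for 15 (62.5%, Wilson interval 42.7 to 78.8), beside 60.0% of the 10 genes. These genes too were listed with results of these data known, so the likeness of the shares is no independent support. In the same window 30.4% of all protein-coding genes had an IDR summit, and 44.9% of those spanning at least 10 kb. In the gene body it was 8 of 24 (33.3%), against 7.08% of all genes and 26.4% of those that long. Of the junction genes, cno, which links adherens junctions to actin, had the strongest region of both lists, with a signal of 167 at rank 244 in an intron, and ranks of 289 and 181 in replicates 2 and 3. Girdin had a signal of 138 at rank 373, ed (echinoid, an adhesion molecule) 5 peaks with ranks from 720, pyd 2 from 1385 and Vinc (vinculin) 2 from 863. The Rap1 peak, ranked 1322, was nearest the TSS of CG12024. Of the Crumbs partners, Moe (moesin) had 3 peaks, the best at rank 685 in an intron, while the veli peak (rank 1200) was nearest Stt3B and the yrt peak (rank 1570) nearest Act87E. Among the Par and cortex genes, the best peaks of par-1, Cdc42 and Rho1 ranked 766, 812 and 941, and each was nearer the TSS of a neighbour, CG7744, Mer and Dg. RhoGEF2 had 1 peak at rank 1401, 324 bp upstream of its own TSS, and 14-3-3zeta had 2. The basolateral gene gukh, whose product binds Dlg and Scribble, had 3 peaks with ranks from 1269. kst, Lkb1, 14-3-3epsilon, cora, Nrx-IV, arm, jub, alpha-Cat and p120ctn had none.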

How the data were processed

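Anti-GFP ChIP-seq libraries of 2 biological replicates were analysed from 4 deposited dm6 lists (pooled, IDR and 1 per replicate); 4 lists in dm3 were not used. Each candidate list was made by the authors from alignments and a control file, which both replicates share, per the deposited file lists. For the aligner, the peak caller and the threshold of the IDR step, the sources used here give no name or value. The deposited signal is the authors' enrichment value of a region, and the deposited −log10 q-value is also theirs; both were used only to rank or filter within a list. The smallest pooled q-value was 1.63e-04. Read depth is unknown. Wilson intervals (95%) cover counting error only.

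Genes and transcripts were taken from Ensembl 115, whose chromosome lengths held all regions, and sequences from the Release 6 reference. Python 3.11.15, numpy 2.4.6, pandas 2.3.3, scipy 1.17.1 and matplotlib 3.10.9 were used. A promoter is within 500 bp of a TSS; remaining summits went to the first class that held, from coding exon through 5' and 3' UTR and other exons to introns and intergenic sequence. Replicate summits matched within 100 bp. Coordinates are 1-based. The counting was tested on simulated data. With 1 group there was no contrast, and no test was made. Alternatives were other windows, other matching distances, a stricter IDR threshold and each replicate alone.

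The genes and lists were chosen with earlier results of these data known. All 10 genes are named, the other polarity and junction genes with an IDR summit, and any gene whose TSS is nearer to a named summit. Candidates ranked up to 4000 below the IDR list, and the other genes without an IDR summit, were named after their values were seen.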

Additional observations from a re-analysis of the deposited data

How the results depend on the processing

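Window and threshold moved the counts. In the gene body alone, IDR summits at the 10 genes fell from 12 to 7, the other genes with one from 15 to 8, and candidates from 149 to 96; within 1 kb of a TSS these were 6, 8 and 29. Counting a summit only for the gene of the nearest TSS left 4 of the 10 polarity genes, with 8 summits, and 9 of the other genes. par-6 and aPKC then had none. With only the IDR peaks at or above the list's median signal, 2 polarity genes (par-6 and dlg1) with 2 summits and 8 other genes were left. With the strongest regions of 1 replicate in place of the IDR list, the polarity genes were 5 in either case, summits 9 to 10 and candidates 146 to 148. A q-value at or below 0.05 left 36 candidates, of which 86.1% were in both replicates. The share in both, 40.9%, became 20.8% within 50 bp, 60.4% within 250 bp, 66.4% by any overlap and 4.03% among the strongest regions of each. Motif counts were small: Gcm 2 became 1 within 50 bp, 5 over the whole region and 0 with the q-value filter; DRE 1 became 0 within 50 bp and 4 over the whole region; GAGAGAG 7 became 19 and, filtered, 2; AACCGGTT 1 became 0 when filtered; GGTCACACT 2 became 1 within 50 bp. Best ranks in either replicate alone differed from the pooled ones at all 10 genes. Ranks from separate lists nearly always differ, so that alone does not measure how stable they are. At aPKC the best rank was 1288 pooled, 682 in replicate 2 and 2940 in replicate 3, and at dlg1 it was 490, 549 and 719. In the gene body alone the best rank changed for 5, Patj, par-6, aPKC, l(2)gl and shg. The causes were not tested. No paired analysis was possible because the samples form 1 group. Read depth is unknown and there is no untagged library here, so how much of the signal belongs to the tagged protein cannot be told apart from other sources.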

Other observations

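Candidates can also be missing from a junction locus. alpha-Cat, the gene of alpha-catenin, had no pooled candidate in its window, and the nearest was 219 kb away. Replicate 2 had 2 there, the better at rank 25994. p120ctn had none in any of the 3 candidate lists, and its nearest pooled candidate was 10.2 kb away. alpha-Cat lies at chr3L:23318646-23338100 and p120ctn at chr2R:4595288-4609492. At both, the stretch without pooled candidates reached beyond the window of the gene, so the absence is not particular to the gene. Its cause was not tested. No pooled candidate in the body or within 5 kb was found for 13.7% of protein-coding genes.

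Below the IDR list, 10 candidates of the polarity genes ranked up to 4000, a limit set after the values were seen. There were 3 at sdt, 2 at aPKC, 2 at scrib and 1 each at crb, baz and Patj. The sdt region at rank 3485 ranked 6102 in replicate 2 and 2588 in replicate 3, and the Patj region nearest alpha-Spec ranked 6604 and 2968. Both were stronger in replicate 3. At the aPKC region 1315 bp upstream of the TSS the order was the other way, with ranks of 2927 in replicate 2 and 17724 in replicate 3.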
